A study of Rattus norvegicus with 4 samples.

Results

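The sodium-potassium pump (Na,K-ATPase) was followed through its beta subunit genes Atp1b1, Atp1b2 and Atp1b3 and the FXYD genes Fxyd1, Fxyd2, Fxyd6 and Fxyd7 in laser-captured layers of the rat crista ampullaris. Probes were taken by current rat gene symbol: of 33849 gene probes on the array, 8 carried one of the 7 symbols and covered 6 of the genes. No probe was named here for Fxyd7. The crista is the sensory epithelium of a semicircular canal, which detects head rotation. The hair cell layer, 2 arrays, was the outer part of the epithelium, taken in a first pass of laser capture, with type I and type II hair cells and supporting cell cytoplasm among them. The supporting cell layer, 2 arrays, was the deeper part, with the bodies of supporting cells, taken in a second pass. Hair cells were recognised by morphology, the calyceal ending around them included, and the labels do not say how much nerve tissue entered a capture. No treatment is named, and strain, age and sex are not given in the sources used here. Whether both arrays of a layer stand for separate animals or captures is not stated, so a p-value here reflects just the spread between arrays, which may be technical.

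The pump exports sodium and imports potassium at the cost of ATP and sets the gradients that drive most other transport across the plasma membrane. Its catalytic alpha subunit needs a glycosylated beta subunit to fold and reach the membrane, and a small single-span FXYD protein can bind the complex and tune its affinity for ions. In the inner ear the pump supports potassium secretion into endolymph and potassium uptake by supporting and transitional cells, and it is abundant in the calyceal afferent endings around type I hair cells.

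Atp1b1, the bright probe of Atp1b2, and Fxyd2 were higher in the hair cell layer, Atp1b3 and Fxyd6 were higher in the supporting cell layer after scaling between arrays, and Fxyd1 did not pass the test. In all, 6 of 7 tested probes were called, 3 higher in each layer, where limma called 67.4% of 16478 tested probes (33.9% toward the hair cell layer, 33.5% toward the supporting cell layer). The share of called probes therefore lies near that of the array. A change is a log2 difference of quantile-normalized intensity, positive where the supporting cell layer was higher, given ± the SE from limma with 2 arrays per layer. A probe was called at an adjusted p under 0.05 (Benjamini-Hochberg over all tested probes). In bulk tissue, fewer cells of a type and less RNA per cell cannot be told apart.

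The arrays differed in brightness. The median raw intensity of gene probes was 26.5 and 16.98 on the hair cell arrays against 12.1 and 12 on the supporting cell arrays, and 39.7% to 48.8% of the probes were detected, that is, marked good or saturated by the scanner software. Without scaling, the median change of all tested probes was -0.67, and 78.9% of called probes were higher in the hair cell layer, against 50.3% with quantile scaling. With median scaling, or with the values scaled by the scanner software, that median was 0.10 or 0.14. Raw intensities are therefore printed first for each member, and a direction is qualified where it rests on scaling.

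**Figure D1:**
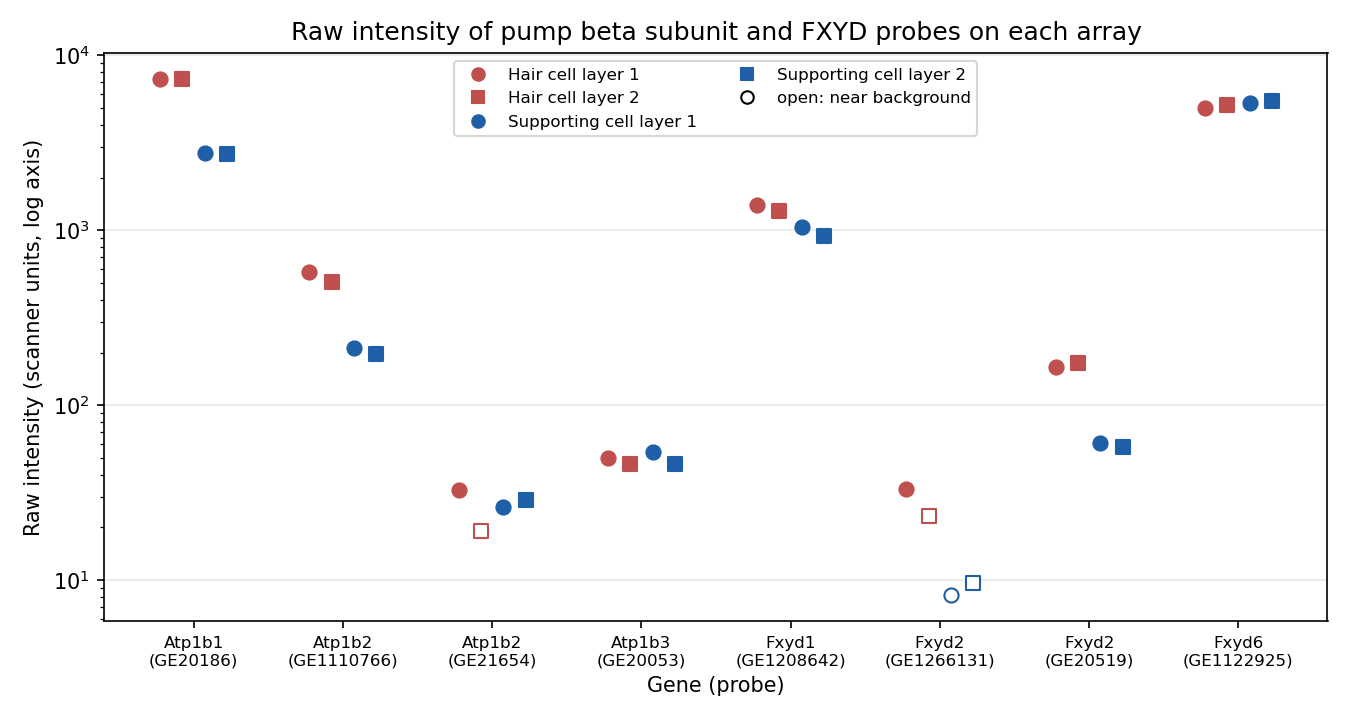
Raw intensity, on a log axis, of the 8 probes on each of the 4 arrays, with hair cell arrays in red, supporting cell arrays in blue, and open symbols where the spot was near background. Atp1b1 lies at 7290 and 7336 in the hair cell layer and at 2758 and 2745.5 in the supporting cell layer, while the Fxyd6 points lie between 5026 and 5486 in both layers.

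Among the beta subunits, Atp1b1, which pairs with the catalytic subunit in most epithelia and neurons, had raw intensities of 7290 and 7336 on the hair cell arrays against 2758 and 2745.5 on the supporting cell arrays, each flagged good. Both hair cell arrays were higher, by 2.66-fold in the means (7313 ± 32.7 against 2752 ± 9.03, SD, n = 2). After quantile scaling the change was -0.90 ± 0.08 (95% confidence interval -1.13 to -0.67), with an adjusted p of 0.00358 by limma. Of all tested probes, 26.5% had a lower change, so the decrease was not extreme for this array. With median scaling the change was -0.63 (adjusted p = 0.112 by limma) and with the scanner software's values -0.60 (adjusted p = 0.310 by limma), so the call was lost while the direction held. Without scaling it was -1.41. The scanner software's values of Atp1b1 were 276 and 432 on the hair cell arrays, whose raw values were alike, and 228 and 229 on the others.

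Atp1b2 encodes the beta subunit also known as the adhesion molecule on glia. Its probe GE1110766 had raw intensities of 580.1 and 506 in the hair cell layer against 214 and 197 in the supporting cell layer. The layers did not overlap, and the means differed by 2.64-fold toward the hair cell layer. The change was -0.69 ± 0.07 (adjusted p = 0.00508 by limma). The call was lost with median scaling (-0.62), with the scanner software's values (-0.59), and without a filter on dim probes (adjusted p = 0.0591 by limma). Without scaling the change was -1.40.

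The other Atp1b2 probe, GE21654, had the opposite sign. It read 32.8 and 19.1 in the hair cell layer, the latter near background, and 26.1 and 28.9 in the supporting cell layer, so the layers overlapped in raw intensity. The fitted change was 0.88 ± 0.13 (adjusted p = 0.0118 by limma), and without scaling it was 0.14 (adjusted p = 0.714 by limma). The scanner software's values (0.95) and the absence of a filter on dim probes (adjusted p = 0.0652 by limma) also ended the call. Its normalized values of 21.8, 18.1, 34.9 and 38.1, in array order, stood close to the lowest detected signals of those arrays, 13.9, 18.5, 26.6 and 28.3. The probes of Atp1b2 therefore disagree, and the direction given for the gene is that of the brighter one.

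Atp1b3, a beta subunit of wide tissue distribution, was dim. Its raw intensities were 50.2 and 46.2 in the hair cell layer against 53.9 and 46 in the supporting cell layer, all flagged good and overlapping between layers. The raw means differed by 1.04-fold. Quantile scaling turned this into a change of 0.71 ± 0.13 (adjusted p = 0.0190 by limma), and without scaling the change was 0.05 (adjusted p = 0.789 by limma). The call was also lost with the scanner software's values (0.86), without a filter on dim probes (adjusted p = 0.0910 by limma), and without hair cell layer replicate 1, hair cell layer replicate 2 or supporting cell layer replicate 1, with adjusted p of 0.0843, 0.0564 and 0.0515 by limma and the lone array of a layer assumed to vary like the others.

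Of the FXYD genes, Fxyd6, also known as phosphohippolin, had raw intensities of 5026 and 5173 in the hair cell layer against 5353 and 5486 in the supporting cell layer. The layers did not overlap, but the raw means differed by only 1.06-fold. The change after scaling was 0.54 ± 0.12 (95% confidence interval 0.19 to 0.89), with an adjusted p of 0.0263 by limma, and it was 0.09 without scaling (adjusted p = 0.554 by limma). The call was lost with the scanner software's values (0.90) and without a filter on dim probes (adjusted p = 0.127 by limma). Leaving out hair cell layer replicate 1, supporting cell layer replicate 1 or supporting cell layer replicate 2 raised the adjusted p to 0.0723, 0.0840 and 0.0664 by limma.

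Fxyd2 encodes the gamma subunit, best known from the renal tubule. Its probe GE20519 had raw intensities of 166 and 174 in the hair cell layer against 60.9 and 57.9 in the supporting cell layer. Both hair cell arrays were higher, by 2.86-fold in the means. The change was -0.85 ± 0.13 (adjusted p = 0.0112 by limma), with adjusted p of 0.0661 under median scaling, 0.222 with the scanner software's values and 0.0647 without a filter on dim probes. Without scaling it was -1.52. The second Fxyd2 probe, GE1266131, read 33.2 and 23.4 in the hair cell layer against 8.18 and 9.58 in the supporting cell layer. Only the first of these 4 spots was flagged good, so it was not tested, and no fold is given, since even its normalized hair cell layer signal was dimmer than any spot detected on the supporting cell arrays.

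Fxyd1 encodes phospholemman, a kinase substrate that relieves inhibition of the pump when phosphorylated. It had raw intensities of 1386 and 1296 in the hair cell layer against 1043 and 932 in the supporting cell layer. In raw intensity both hair cell arrays were higher, by 1.36-fold in the means, and without scaling the change was -0.44 (adjusted p = 0.0469 by limma). After quantile scaling the sign turned, to 0.26 ± 0.08, which was not called (adjusted p = 0.0587 by limma). It passed with an offset of 50 in place of the floor, with an intensity trend and with the filter set to detection on every array (adjusted p = 0.0159, 0.00826 and 0.0275 by limma), so no direction is given for Fxyd1. Over the 7 tested probes, the layers did not overlap in raw intensity for 5, where this held for 87.8% of tested probes with 4 values. Both hair cell arrays were the higher ones for 4 of the 7, where this held for 67.0%.

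**Figure D2:**
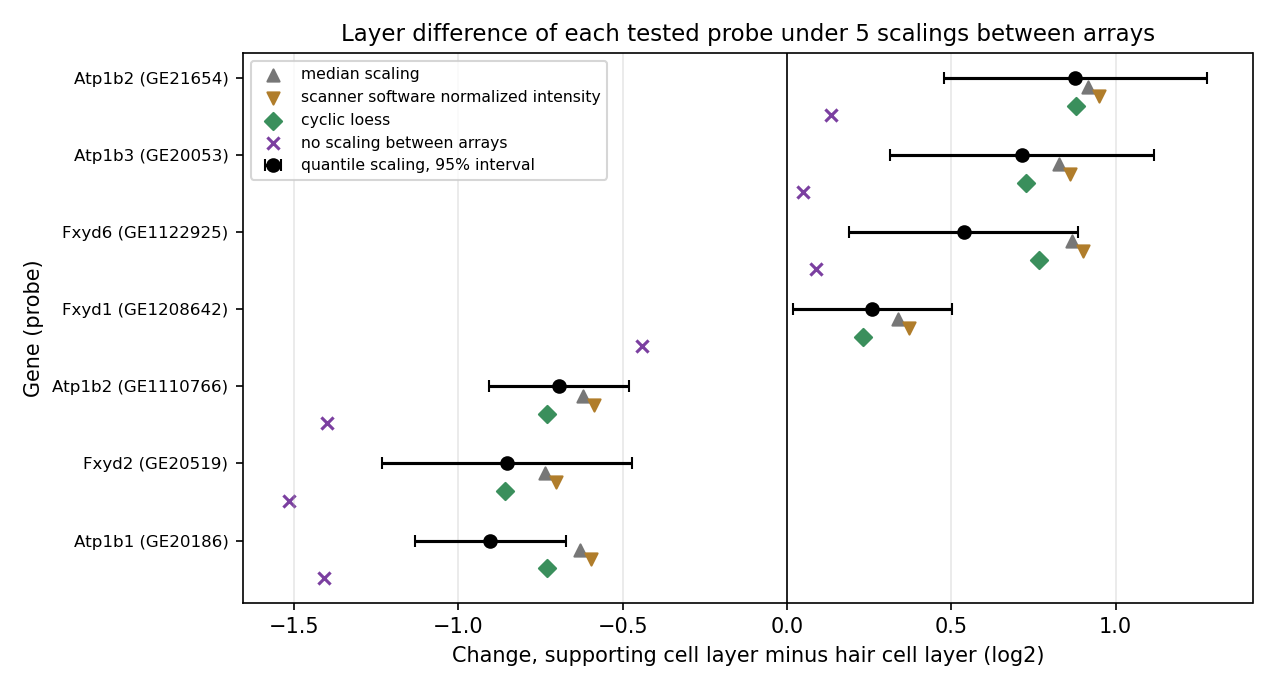
Change of each tested probe between layers on the log2 scale, with black points and 95% confidence intervals from limma for quantile scaling and coloured symbols for 4 other scalings. Atp1b1, Fxyd2 and the brighter Atp1b2 probe stay below 0 under each scaling shown, Atp1b3, Fxyd6 and the dimmer Atp1b2 probe come close to 0 without scaling, and Fxyd1 changes sign.

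A ratio of 2 probes on the same array does not change when an array is multiplied by a constant, so it was read from raw intensity for the 15 pairs among the 6 probes flagged good on all 4 arrays. Such a ratio shows unequal change and no level. The log2 ratio of Atp1b1 to Fxyd6 was 0.54 and 0.50 on the hair cell arrays against -0.957 and -0.999 on the supporting cell arrays, a difference of -1.5 where replicates differed by 0.03 and 0.04. The ratio of Fxyd2 to Fxyd6 moved by -1.60 and that of Atp1b2 to Fxyd6 by -1.49. Against Atp1b3, Atp1b1 moved by -1.46 and Atp1b2 by -1.45. Each of these ratios was lower on both supporting cell arrays than on both hair cell arrays. Such a shift is the difference of the unscaled changes of its 2 probes, so it restates them and is no separate support.

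Atp1b1, Atp1b2 and Fxyd2 are taken as a set, and so are Atp1b3 and Fxyd6. These sets were drawn from the changes above. Close ratios within a set and shifted ratios between the sets follow from that choice and are no separate result. Atp1b1 to Atp1b2 was 3.65 and 3.86 in the hair cell layer against 3.69 and 3.80 in the supporting cell layer, a difference of -0.01 inside the spread of replicates. Atp1b3 to Fxyd6 moved by -0.04, with replicates 0.16 and 0.26 apart. Atp1b1 to Fxyd2 moved by 0.11, with no overlap between layers, and Atp1b2 to Fxyd2 by 0.12 with overlap. Fxyd1 stood between the sets: its ratio to Fxyd6 moved by -0.53, and the ratio of Atp1b1 to it by -0.97. Over single tested probes with 4 values, layers did not overlap for 87.8%. In the 15 pairs they did not overlap for 12. The share over all pairs of probes was not counted, so the 12 are no result about these genes. These pairs share probes, and an exact permutation test of 2 against 2 arrays cannot give a two-sided p below 0.333, so none is given.

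**Figure D3:**
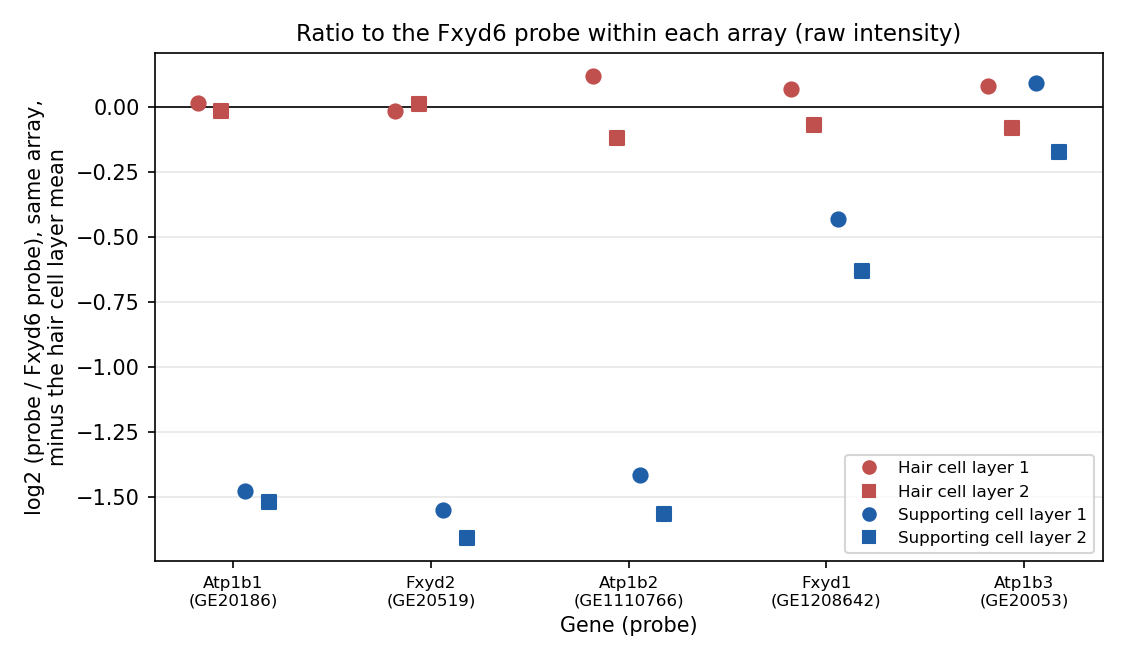
Log2 ratio of each probe to the Fxyd6 probe on the same array, from raw intensity, minus the mean of the hair cell arrays (red); supporting cell arrays are blue. Atp1b1, Fxyd2 and Atp1b2 lie lower in the supporting cell layer (-1.5, -1.60 and -1.49), Fxyd1 lies 0.53 lower, and Atp1b3 overlaps between layers. These shifts restate the unscaled changes of the probes.

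In the RefSeq gene order of GRCr8, Fxyd6 and Fxyd2 are neighbours with 0 protein-coding genes between them, and they were called in opposite directions after scaling. Fxyd5, Fxyd7 and Fxyd1 follow each other on another chromosome, with 1 gene between Fxyd1 and Fxyd3.

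Promoters are shown for Atp1b2, from the set higher in the hair cell layer, and for Atp1b3 and Fxyd6, whose ratio stayed close. RefSeq promoter windows (GRCr8) were matched for 4 of the 7 genes, the fourth being Fxyd1. Each sequence is the 250 bases before the gene's start, 5′ to 3′ on the gene's strand. The places are chr10:54823709-54823958 on the minus strand for Atp1b2, chr8:105821152-105821401 on the minus strand for Atp1b3 and chr8:54575575-54575824 on the plus strand for Fxyd6. Capitals mark matches to 3 motifs, searched on both strands, and adjoining matches run together. The first is the GC box, read by Sp-family factors, with the letters GGGCGG. The next is the CCAAT box, named for its letters, and the last is the TATA box, searched as TATAAA.
Atp1b2: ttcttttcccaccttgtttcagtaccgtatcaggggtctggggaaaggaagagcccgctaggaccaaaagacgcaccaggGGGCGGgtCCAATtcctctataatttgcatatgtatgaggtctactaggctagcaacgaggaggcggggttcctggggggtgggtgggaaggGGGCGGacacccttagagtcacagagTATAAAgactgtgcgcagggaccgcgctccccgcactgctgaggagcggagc
Atp1b3: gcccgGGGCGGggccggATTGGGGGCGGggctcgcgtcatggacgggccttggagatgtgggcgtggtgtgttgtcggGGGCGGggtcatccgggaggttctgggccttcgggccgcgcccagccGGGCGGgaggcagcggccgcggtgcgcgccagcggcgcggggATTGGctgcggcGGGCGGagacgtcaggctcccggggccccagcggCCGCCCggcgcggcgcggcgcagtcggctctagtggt
Fxyd6: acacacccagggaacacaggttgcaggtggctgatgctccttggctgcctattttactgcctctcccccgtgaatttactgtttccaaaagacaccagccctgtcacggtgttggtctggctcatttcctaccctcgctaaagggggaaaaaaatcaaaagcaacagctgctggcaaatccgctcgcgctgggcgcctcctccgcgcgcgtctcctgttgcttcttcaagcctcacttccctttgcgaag
Atp1b3 held 6 GC box matches, Atp1b2 held 2 and Fxyd6 held 0, where 30.5% of 33469 promoter windows of this length held at least 1. CCAAT box matches numbered 2, 1 and 0 in the same order (34% of windows), and the TATA box letters were found in Atp1b2 alone of the 3 (12.9% of windows). The GC content was 79.6% for Atp1b3, 58% for Atp1b2 and 55.2% for Fxyd6, beside a median of 51.2%. A match is a description of the letters, not a binding site.

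Of 11 other subunit and FXYD genes of the sodium-potassium pump and the related proton-potassium pump, 6 were named on the array and 3 were tested. Fxyd3, an epithelial family member, was higher in the hair cell layer, with raw intensities of 326 and 285 there and 62.8 and 57.8 in the supporting cell layer. Its change of -1.66 ± 0.08 (adjusted p = 0.00156 by limma) was larger than that of any of the 7 tested member probes. Fxyd5, or dysadherin, read 81.1, 78.9, 47.9 and 61.6 in array order and had a change of 0.10 ± 0.19 (adjusted p = 0.663 by limma). Atp1b4, a gene of the beta subunit family, read 31 and 29.8 against 32.5 and 32.5 at its brighter probe. Its change of 0.87 ± 0.16 was called (adjusted p = 0.0177 by limma), but it was 0.10 without scaling, and its other probe was near background on every array. Atp1a4, Atp4b and Atp12a, the testis catalytic subunit and subunits of the proton-potassium pumps, were detected on 1, 0 and 0 arrays.

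Of 17 genes that bind or regulate the pump, 9 were tested and 4 called, 2 in each direction, with a median change of 0.25 beside -0.11 over all 7707 tested genes, of which 65.4% were called (37.2% toward the hair cell layer, 28.2% toward the supporting cell layer). The spectrin Sptbn1 (0.49 ± 0.08) and caveolin Cav1 (0.49 ± 0.11) were called toward the supporting cell layer, but both directions rest on scaling. Without it Cav1 had the opposite sign (-0.17). Sptbn1 then had a change of 0.11, with raw intensities that overlapped between layers. The ubiquitin ligase Nedd4l (-0.79 ± 0.09) and the 14-3-3 protein gene Ywhae (-0.88 ± 0.19) went toward the hair cell layer.

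Of 18 genes of potassium secretion and recycling, 9 were tested, 3 called toward the supporting cell layer and 2 toward the hair cell layer, with a median change of 0.32. The gap junction gene Gja1 was, at its brightest probe, at least 9.04-fold higher in the supporting cell layer and near background on both hair cell arrays. Its other probes were near background on every array. The limit sets the mean log2 signal of the brighter layer against, per array, the higher of the lowest detected signal and the probe's own value. The cotransporters Slc12a7 (0.65 ± 0.07) and Slc12a2 (0.32 ± 0.07), the latter the loading step of potassium secretion beside the pump, were called toward the supporting cell layer, but without scaling their changes were -0.01 and -0.39. The potassium channel Kcnj16 (-1.23 ± 0.07) and the water channel Aqp4 (-0.94 ± 0.09) were higher in the hair cell layer, Aqp4 at its brightest probe, while a dimmer Aqp4 probe had -0.14 ± 0.25 and did not pass.

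Of 16 sodium-coupled transport genes, 9 were tested and called, beside 65.4% of all tested genes, 7 toward the hair cell layer and 2 toward the other. Of the 7, 5 were undetected on both supporting cell arrays, and 1 of the 2 on both hair cell arrays, so these 6 passed the filter only through the layer where they were bright and their calls are no measure of the list. The 3 genes detected on all 4 arrays went 2 toward the hair cell layer and 1 toward the other. The sodium-calcium exchanger Slc8a1 exceeded its supporting cell layer limit in the hair cell layer by at least 6.73-fold, the amino acid transporter Slc38a2 at least 3.08-fold, the creatine transporter Slc6a8 at least 2.60-fold and the bicarbonate transporter Slc4a4 at least 1.73-fold. The other Slc8a1 probes were near background on every array. The phosphate transporter Slc20a2 was near background on both supporting cell arrays and too dim in the hair cell layer for a fold to be given. The inositol transporter Slc5a3 (2.68 ± 0.07) was higher in the supporting cell layer. Over these 4 lists, 20 genes were called, and 3 of those turned sign without scaling between arrays.

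**Figure D4:**
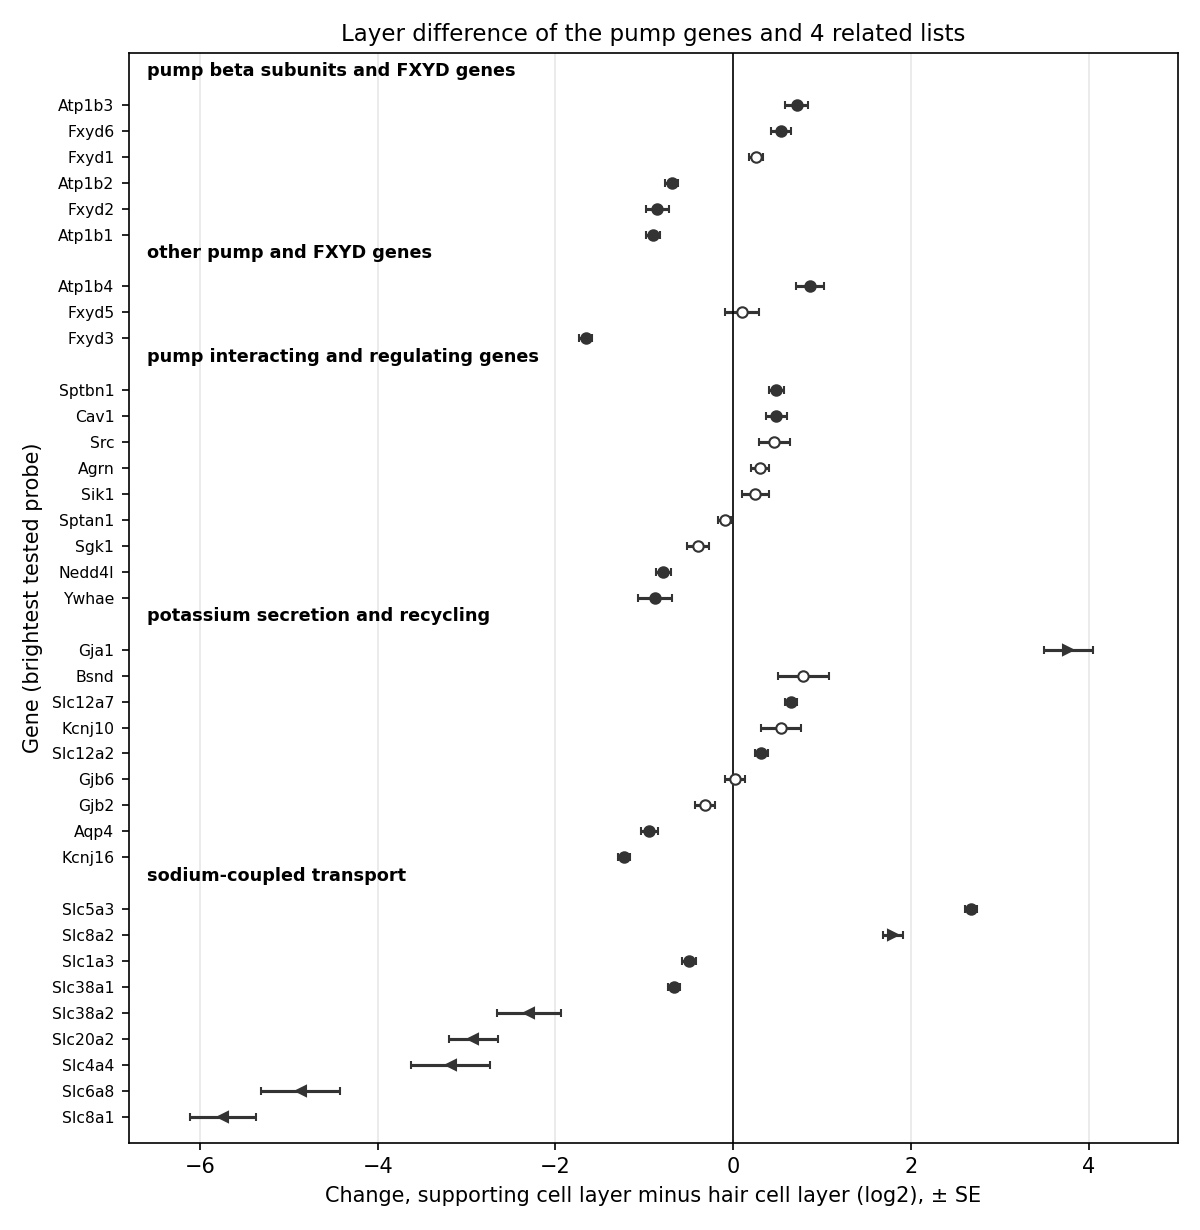
Change of each tested gene at its brightest probe (log2, supporting cell layer minus hair cell layer, ± SE) for the pump genes and 4 related lists. Filled symbols passed limma at an adjusted p under 0.05, open ones did not, and triangles mark genes undetected in 1 layer, for which the plotted value depends on the floor. The 6 pump genes lie between -0.90 and 0.71.

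By a fixed measure, the root mean square distance between log2 values centred on each gene's mean over the 4 arrays, the 5 of 5697 other named genes detected on all arrays that lay closest to Atp1b1 were Ift20 (0.008), Top2b (0.009), Tcn2 (0.015), Mfsd6 (0.017) and Skap2 (0.018). Closest to Atp1b3 were Tubgcp6 (0.015), Oxa1l (0.016), Kat7 (0.017), Lif (0.024) and Gpr165 (0.032). With 4 arrays, a short distance says little beyond a like change and a like difference between replicates.

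Hair cell markers moved with their layer, while supporting cell markers went both ways. The counts of calls below stand beside 65.4% of all 7707 tested genes called. Of all tested genes, 37.2% were called toward the hair cell layer and 28.2% toward the supporting cell layer. A count near these shares is no result about its list. Of 15 hair cell markers, 14 were called higher in the hair cell layer, with summed normalized intensities of 12299 and 13210 there against 5339 and 5088 in the supporting cell layer. Of these markers, 5 were undetected on both supporting cell arrays, and those detected on all 4 arrays had changes from -0.39 (Barhl1) to -3.10 (Grxcr1), a range that holds the -0.69 to -0.90 of Atp1b1, Fxyd2 and the brighter Atp1b2 probe. Of 15 supporting cell markers, 6 were called toward the hair cell layer and 7 toward the other, with sums of 20799 and 20888 against 18809 and 19184. The 6 had changes from -0.49 (Slc1a3) to -2.33 (Epcam), a range that holds the same member changes, so the range is not particular to hair cell markers. Of 9 tested Schwann cell and glial markers, 4 were called toward the hair cell layer and 2 toward the other, with sums of 3652 and 3653 against 3880 and 3950, where Mbp and Gfap were detected on no array and Pmp22 (raw 999 to 2248), Prx (raw 1036 to 1308), Mag, Egr2 and S100b on all 4. Of 7 tested neuronal markers, 2 were called toward the hair cell layer and 5 toward the other, with sums of 1259 and 1340 against 2382 and 2599. Among 8 tested endothelial and pericyte markers, 6 were called toward the supporting cell layer and 1 toward the other, with sums over 7 genes of 499.7 and 568 against 1492 and 1499.9. The eighth, Cldn5, was left out of the sums for want of a value on the second supporting cell array, and its normalized intensities were 416, 406 and 1471 on the others. Connective tissue and muscle markers gave 4 and 2 calls of 8 tested in those directions, with sums of 1316 and 1342 against 2451 and 2505, and blood cell markers 2 and 1 of 5 tested, with sums of 239 and 269 against 282 and 271. Dark cell, transitional cell and melanocyte markers gave 2 and 1 of 5 tested, with sums over 3 genes of 1319 and 1299.6 against 1846 and 1941. Bsnd and the melanocyte gene Pmel lacked a value on the first hair cell array and were left out of these sums. Pmel, called toward the hair cell layer, had normalized intensities of 2693, 206 and 200 on the others, so the sums do not hold its direction. Mitf, another marker of this list, was called toward the supporting cell layer. Its raw intensities were 19.5 and 19.4, near background, on the hair cell arrays against 200 and 200. Tyrp1 was detected on no array, so no direction is given for melanocytes. Of the dark and transitional cell markers, Kcne1 and Slc26a4 were detected on no array, Kcnq1 on 1 hair cell array, Bsnd on 3 arrays, and Slc12a2 (raw 1138 to 1614) and Kcnj10 on all 4. Nefl, Nefm, Ncam1, Fbn1, Myh2 and Aif1, called toward the hair cell layer, were undetected on both supporting cell arrays. Rgs5, Mitf and Ahsp, called toward the supporting cell layer, were undetected on both hair cell arrays. These genes, and the 5 such hair cell markers, passed the filter only through the layer where they were bright. Their calls are therefore no measure of the lists. The part of these cell types in the pump gene results was not tested.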

How the data were processed

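Gene expression was measured in 4 samples on single-colour rat whole-genome oligonucleotide arrays, 2 per layer, after linear amplification of polyadenylated RNA, per the labels' protocols. The scanner software was CodeLink Expression Analysis 4.0.0.23520, per the file headers. The deposited raw intensity is on a linear scale and is already background-corrected, since some values are below 0. The normalized intensity in the deposited scanner files equals raw intensity over that array's median.

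Probes were named from the platform annotation, matched row by row through the deposited series table (35125 rows equal within 1e-06 on 3 arrays). That table's column for supporting cell layer replicate 2 disagreed with its scanner file, shifted by rows, and was not used; old symbols were replaced through RefSeq's GRCr8 table. This named 16730 of 33849 gene probes by 1 symbol (12189 genes), while 165 had several and 16954 none; the latter 2 kinds were not named, and some pump subunits are not reported here. Control spots and spots flagged C, I or M by the scanner software (contaminated, irregular or masked) were left out. Raw intensities were quantile-normalized in R 4.3.3, and log2 was taken after values under 0.1 of the normalized median were set to that floor. A probe entered the test when 2 or more of 4 arrays had it flagged good or saturated (16478 probes), and these were fitted with limma 3.58.1 (lmFit, eBayes, two-sided, no trend, no block). The prior SD was 0.107, on 1.31 degrees of freedom. A gene is given at its brightest probe.

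Every member probe is reported, with every gene of the first related list that has a probe, at most 6 called genes of largest change in each of the other 3 lists, and the 5 genes most alike to the called member of largest change in each direction. The members and lists were chosen with earlier results of these data known. Alternatives were other scalings, an offset, other filters, an intensity trend, a replicate block, saturated spots left out and each array left out. The number of arrays limits the precision.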

Additional observations from a re-analysis of the deposited data

How the results depend on the processing

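Over all tested probes, the 11111 calls became 6870 with the scanner software's normalized intensity and 6654 without a filter on dim probes, and 7252 to 9939 when each array was left out in turn, lowest without hair cell layer replicate 1. The 6 member calls became 3 with median scaling, all higher in the supporting cell layer, 0 with the scanner software's values (limma, 1 at an unadjusted p under 0.05), 1 without a filter, and 4 to 5 with an array left out. The 20 calls of the related lists became 10 with the scanner software's values, 10 without a filter, and 14 to 20 with an array left out. Median scaling ended the calls of Atp1b1 (-0.63), the bright Atp1b2 probe (-0.62) and Fxyd2 (-0.74). The scanner software's values ended those of Atp1b1 (-0.60), the bright and dim Atp1b2 probes (-0.59 and 0.95), Atp1b3 (0.86), Fxyd2 (-0.70) and Fxyd6 (0.90). Without a filter, 33834 probes were tested in place of 16478, 8 member probes in place of 7 and 46 related genes in place of 30. The counts without a filter therefore rest on larger sets. In that fit, changes stayed at -0.69 and 0.88 for Atp1b2, 0.71 for Atp1b3, -0.85 for Fxyd2 and 0.54 for Fxyd6, but adjusted p rose past 0.05. No scaling between arrays, chosen after seeing the data, ended the calls of the dim Atp1b2 probe (0.14), Atp1b3 (0.049) and Fxyd6 (0.088) and reversed Fxyd1 (-0.44). Fxyd1 passed with an offset of 50 (0.25), among probes detected on all 4 arrays (0.26) and with an intensity trend (0.26). With an array left out, Atp1b3 ranged from 0.60 to 0.82 and Fxyd6 from 0.44 to 0.64. The cause of these shifts was not tested. Whether the replicate numbers pair the samples is not stated. The correlation of deviations between layers was -0.03, which shows no pairing but cannot exclude it. With the replicate block 4 member probes were called, and 8704 of all probes. Atp1b3 (0.71, adjusted p = 0.0636 by limma) and Fxyd6 (0.54, adjusted p = 0.0713 by limma) were then not called. Normexp correction was not run, since spot and background signals were not used separately here, and a slide or scan block was not run because each slide holds 1 array. Dim probes such as those of Atp1b3 and Atp1b4 lie within a few fold of the lowest detected signal, which limits their precision.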
